A study of Heliconius melpomene cythera and Heliconius melpomene rosina with 32 samples.

Results

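A total of 62 loci in the pupal wings of H. melpomene had a higher normalised read count in every female library than in any male library. They were found by dividing each raw count by the total of its library, scaling to CPM (the count per 1000000 counts of the library), and keeping loci whose lowest CPM over the 12 female libraries was above the highest CPM over the 20 male libraries. The table held 30720 loci, of which 27012 had a count in some library, so 0.23% of the loci with a count were kept. The same rule turned round, with every male library above every female library, kept 2 loci, or 0.0074%. The 62 loci were thus chosen by their measured CPM in females against males, so their sex difference is given here as a description with no test, and only stage, subspecies and wing region were tested.

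The study compared the iridescent subspecies H. m. cythera with the black subspecies H. m. rosina at 70% and 50% of pupal development. RNA from 16 individuals was sequenced as 2 libraries each, from the forewing and posterior hindwing and from the anterior hindwing. By their labels, the females were cythera 70% (individuals 10 and 12), cythera 50% (1 and 3) and rosina 50% (6 and 8). The males were cythera 70% (9 and 11), cythera 50% (2 and 4), rosina 70% (13 to 16) and rosina 50% (5 and 7). No female was labelled rosina 70%, so subspecies could be compared among females at 50% only, and stage in cythera only. All individuals were reared in captivity and none was treated.

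Female libraries held 20151439 to 45570497 counts in total and male libraries 21141907 to 43268883. At these depths a locus with no count in a library could still have had up to 3 counts, which was 0.0658 to 0.149 CPM in females and 0.0693 to 0.142 CPM in males. The intervals and limits given here cover counting error only. The 10 most abundant loci took 31.7% to 41.8% of the counts at 70% and 16.2% to 28.4% at 50%, and the tests below were therefore scaled by TMM factors. The study left out a rosina individual as mislabelled without giving its number in the main text. Male 13, labelled rosina 70%, lay nearer to the cythera 70% males (mean distance 1.28 in log2 CPM over expressed loci) than to the other rosina 70% males (1.55), whereas males 14, 15 and 16 lay nearer to each other. All labelled individuals were kept here, and the same 62 loci were found without male 13.

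In butterflies and moths the female is the sex with unlike sex chromosomes. Females carry a Z and a W chromosome, whereas males carry a pair of Z chromosomes and no W. The W passes from mother to daughter, is rich in repeated sequence and holds few known protein-coding genes. In the silk moth Bombyx mori a small RNA made from the W sets female development, acting against a Z-linked gene needed for male development. The pathway ends in the sex-specific splicing of doublesex, a transcription factor that sets the sexual traits of insect tissues. Positions of the loci were not used here, so none of them could be placed on a chromosome. No ID of the count table carried the written name of a sex-determination gene, so the pathway itself could not be followed.

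Annotation was rare among the 62 loci. Rows of the table carry the ID of an assembled locus (MSTRG), an ID of an annotated gene (HMEL), or both. An annotated ID was present for 3 of the 62 loci (4.84%), against 53.8% of all loci with a count and 73.6% of the 11319 loci with a count in every female library. The gap was wider at higher levels, where 1 of 37 of the loci with a female mean of at least 1 CPM (2.70%) was annotated, against 79.4% of all loci at that level. Among all loci below 1 CPM with a count in every female library the share was 20.5%. The annotated loci were MSTRG.11950|HMEL030967g1, above 1 CPM, and MSTRG.4043|HMEL036284g1 and MSTRG.10291|HMEL030581g1, which were among the 25 of the 62 loci below 1 CPM. None of these IDs was paired with a gene name, so no function is given for any of the 62 loci.

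Levels of the 62 loci spanned a wide range in females. Female means over 6 individuals lay between 0.193 and 100.1 CPM with a median of 1.34 CPM. There were 37 loci at 1 CPM or more, of which 11 were at 10 CPM or more, and 25 loci below 1 CPM. Every one of the 62 loci had a count in every female library, which the rule requires. In male libraries between 15 and 37 of the 62 had a count, with a median of 22.5. Summed over the 62 loci, female libraries held 423 to 723 CPM (median 524) and male libraries 2.31 to 15.4 CPM (median 4.89). In bulk tissue, fewer cells with a transcript and less of it per cell cannot be told apart.

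**Figure D1:**
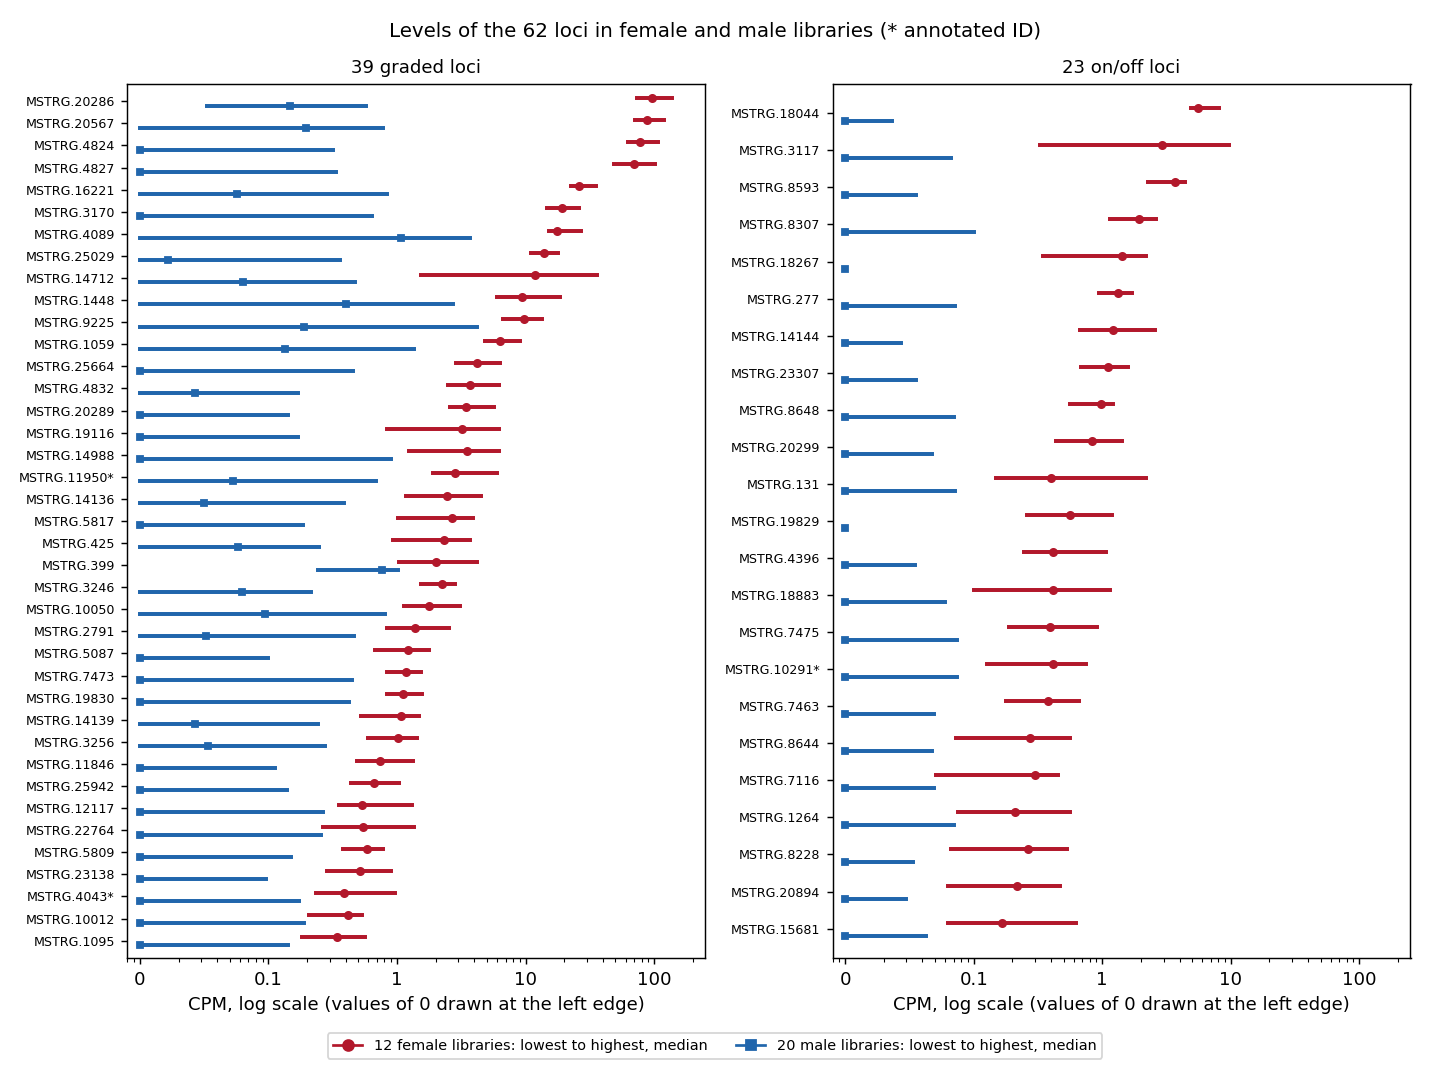
Levels of the 62 loci in CPM on a log axis, with 39 graded loci on the left and 23 on/off loci on the right. Lines run from the lowest to the highest library and markers give the median, for 12 female libraries (red) and 20 male libraries (blue). Values of 0 are drawn at the left edge. The female line lies to the right of the male line for each locus, because the rule chose them so, and most male medians are at 0 or below 0.3 CPM.

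The loci were split by their counts in males. On/off loci, 23 of the 62, had at most 3 counts in each male library, and graded loci, the other 39, had more than 3 counts in at least 1 male library. The on/off loci summed to 21.3 to 35.6 CPM in female libraries and 0 to 0.395 CPM in male libraries. The split depends on abundance. Female means of on/off loci were 0.193 to 5.94 CPM (median 0.556), and those of graded loci 0.349 to 100.1 CPM (median 2.67). An abundant locus can pass 3 counts in a male library through a few reads and count as graded although its male level is a small fraction of the female level. Conversely, a weak locus can count as on/off although it was read in males. Of the on/off loci, 9 had more than 3 counts over all males. The highest male share among them was that of MSTRG.7475, with 17 male counts and a male mean of 5.84% of the female mean. Measured instead as a male mean of at most 1% of the female mean, a criterion added after the values were seen, 28 of the 62 loci were near off in males, made up of 14 on/off and 14 graded loci.

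Among the graded loci, 4 stood far above the rest. MSTRG.20286 ranged from 73.8 to 138 CPM over the 12 female libraries (median 97.1), against 0.0335 to 0.578 CPM over the 20 male libraries. Its mean was 100.1 ± 15.9 CPM in females (SD, n = 6 individuals) and 0.184 ± 0.0770 CPM in males (SD, n = 10), a 543-fold difference of means. Reads were seen in every male library, although the highest male library held 25 counts and the lowest female library 2184. MSTRG.20567 ranged from 70.7 to 119.7 CPM in female libraries (median 88.6), against at most 0.777 CPM in male libraries, and its means of 88.0 ± 11.8 CPM in females and 0.232 ± 0.142 CPM in males differed 380-fold. Its lowest female library was 91 times its highest male library.

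MSTRG.4824 showed the highest fold difference of means, 1572-fold. It had 62.8 to 107.8 CPM in female libraries (median 77.7), against at most 0.317 CPM in male libraries, and 14 of the 20 male libraries had no count. The nearby ID MSTRG.4827 had 49.1 to 102 CPM in female libraries (median 69.9), against at most 0.334 CPM in male libraries, with 11 male libraries at 0 and an 866-fold difference of means. Together these 4 loci made up 59.1% to 68.9% of the summed level in each female library. Across the 12 female libraries the level of MSTRG.20567 was 0.811 to 0.963 times that of MSTRG.20286, MSTRG.4824 was 0.690 to 0.886 times, and MSTRG.4827 was 0.663 to 0.814 times. Other abundant loci also kept near-constant ratios to MSTRG.20286, with a coefficient of variation of 0.103 for MSTRG.16221, 0.115 for MSTRG.3170 and 0.126 for MSTRG.25029, against 0.0578 to 0.0718 for the 3 above. MSTRG.4089, at 0.128 to 0.344 times, was the exception among these 7 loci (0.317). The points share libraries and depth, levels of different loci are not corrected for length, and reads shared between similar or overlapping loci cannot be told apart from these counts.

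Another 7 graded loci had female means of at least 10 CPM. MSTRG.16221 averaged 26.4 ± 2.65 CPM in females and was 161-fold above its male mean. MSTRG.3170 averaged 19.4 ± 2.43 CPM (224-fold), MSTRG.25029 averaged 13.9 ± 1.95 CPM (204-fold) and MSTRG.14712 averaged 13.7 ± 10.8 CPM (137-fold), all as SD over 6 females. These 4 loci were below 1% of the female mean in males. MSTRG.4089, MSTRG.1448 and MSTRG.9225 had more male reads. MSTRG.4089 averaged 19.0 ± 3.64 CPM in females, against 1.04 CPM in males (18.3-fold), MSTRG.1448 was 15.0-fold and MSTRG.9225 13.4-fold higher in females. The highest male libraries for these loci reached 3.67, 2.74 and 4.22 CPM in that order.

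The mildest difference belonged to MSTRG.399, with a female mean of 2.15 CPM and a male mean of 0.693 CPM, or 3.10-fold. It held 7 to 43 counts in every male library and its lowest female library, from female 10, was 1.016 times its highest male library. Of the 48 loci with more than 3 counts summed over all males, 17 differed more than 100-fold in means, 30 differed 10- to 100-fold, and MSTRG.399 alone differed less than 10-fold. The median of the 48 was 33.8-fold. The annotated graded loci were among the milder ones, with MSTRG.11950|HMEL030967g1 at 2.95 ± 1.09 CPM in females (16.2-fold) and MSTRG.4043|HMEL036284g1 at 0.452 CPM in females (21.0-fold).

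The most abundant on/off locus was MSTRG.18044. Its female libraries lay between 4.92 and 8.07 CPM (median 5.57), with a mean of 5.94 ± 0.841 CPM (SD, n = 6), against 1 count in all 20 male libraries together. The ratio of this female mean to the pooled male level was 3861. Its 95% counting interval, from the male counts alone, was 693 to 152500. Its lowest female library was 213 times the single male library with a count, the highest such ratio among the 60 loci with a male read. MSTRG.8593, at 3.49 ± 0.423 CPM in females and 3 counts in all males, had a ratio of 756 (interval 259 to 3664). MSTRG.14144, at 1.31 ± 0.342 CPM and 1 male count, had a ratio of 849 (152 to 33540). These intervals are wide because so few male reads were counted.

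For 2 on/off loci no male library held a single count. MSTRG.18267 had 0.347 to 2.18 CPM in female libraries and a mean of 1.40 ± 0.288 CPM, which is at least 9.84-fold higher than the limit of 3 counts in the shallowest male library. MSTRG.19829 averaged 0.556 ± 0.151 CPM in females, at least 3.92-fold higher by the same limit. These limits use a single male library, whereas the ratios of MSTRG.18044, MSTRG.8593 and MSTRG.14144 pool all male libraries. The limits are therefore not comparable with those ratios. Other on/off loci with a female mean near or above 1 CPM were MSTRG.3117 (3.58 ± 2.84 CPM, 4 male counts), MSTRG.8307 (2.00 ± 0.258 CPM, 203-fold), MSTRG.277 (1.37 ± 0.201 CPM, 78.6-fold), MSTRG.23307 (1.12 ± 0.144 CPM, 120-fold), MSTRG.8648 (0.916 ± 0.0944 CPM) and MSTRG.20299 (0.863 ± 0.372 CPM). Depth limits what can be said of the rest. Only 8 of the 23 on/off loci had at least 10 counts in every female library, against 34 of the 39 graded loci. The weakest, MSTRG.15681, had a female mean of 0.193 CPM, with 2 counts in its lowest female library. The annotated on/off locus MSTRG.10291|HMEL030581g1 averaged 0.397 CPM in females.

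Some members carried neighbouring ID numbers. Assembled loci are numbered up to 26173, and the 62 loci make up 0.237% of these numbers. MSTRG.19829 and MSTRG.19830 were adjacent, and 20 of the 62 loci (32.3%) lay within 10 numbers of another, a window chosen after the IDs were seen. They formed 8 runs, among them MSTRG.4824, MSTRG.4827 and MSTRG.4832, MSTRG.20286, MSTRG.20289 and MSTRG.20299, and MSTRG.14136, MSTRG.14139 and MSTRG.14144. Some loci of a run differed widely in level and others were close. MSTRG.20286 averaged 100.1 CPM in females, MSTRG.20289 averaged 3.78 CPM and MSTRG.20299 averaged 0.863 CPM. MSTRG.4824 and MSTRG.4827 averaged 80.3 and 72.1 CPM, against 3.90 CPM for MSTRG.4832 of the same run. The 0.237% is not the share of loci that would lie within 10 numbers of a member. That share was not counted, so the 32.3% has no matched background here. No position was inferred from the numbers.

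The edge of the rule was thinly populated at high counts. No member had at least 10 counts in every library. Of the members with at least 10 counts in every female library, those nearest the edge were MSTRG.399, MSTRG.12117 and MSTRG.14988, whose lowest female library was 1.016, 1.326 and 1.372 times the highest male library. Just outside, MSTRG.3421 was at 0.954. Of the loci with at least 10 counts in every library, those nearest the edge outside were MSTRG.19576|HMEL004675g1 at 0.941, MSTRG.11794|HMEL009208g1 at 0.853 and MSTRG.5071|HMEL016265g1|HMEL016265g2 at 0.830. These annotated loci were read in both sexes, with means of 364.8 CPM in females and 214.6 CPM in males for MSTRG.19576|HMEL004675g1 (1.70-fold) and differences of 1.27-fold for MSTRG.11794|HMEL009208g1 and 1.19-fold for MSTRG.5071|HMEL016265g1|HMEL016265g2. The loci kept by the reverse rule were weak. MSTRG.24888 had no female count and averaged 0.439 CPM in males, and MSTRG.24995 had 2 counts in all females and averaged 1.20 CPM in males.

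Applied to the 8 individuals at 50% alone, the rule kept 110 loci, or 0.407% of loci with a count, and at 70% alone it kept 313, or 1.16%. There were 66 loci in both sets, 60% of the first and 21.1% of the second. The 62 loci are among these 66 by construction, so the overlap is no further evidence of a sex difference. The reverse rule kept 107 loci (0.396%) at 50% and 97 (0.359%) at 70%, with 8 in both. At 70% the females were all cythera while 4 of the 6 males were labelled rosina, so sex and subspecies are partly mixed at that stage.

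**Figure D2:**
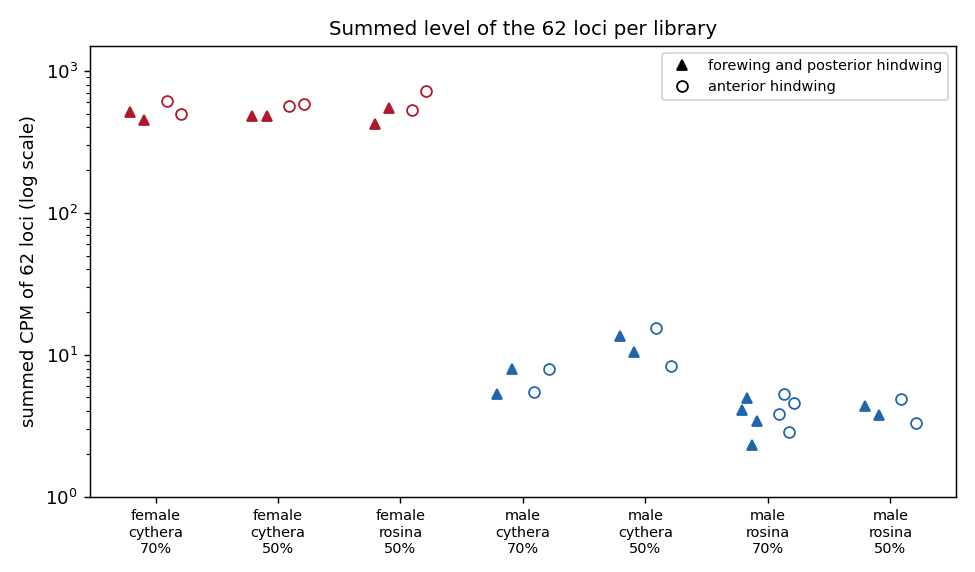
Summed level of the 62 loci in each library, in CPM on a log axis, by sex, subspecies and stage (females red, males blue, with filled triangles for the forewing and posterior hindwing and open circles for the anterior hindwing). Female groups overlap each other between 423 and 723 CPM, while male libraries reach 15.4 CPM at most.

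In females the summed level was similar between stages and subspecies. It was 448 to 616 CPM in cythera 70% libraries, 479 to 589 CPM in cythera 50% libraries and 423 to 723 CPM in rosina 50% libraries, and the ranges overlapped. The 4 most abundant loci made up 59.1% to 68.9% of this sum in each female library. A weaker locus can therefore change without showing in it. The coefficient of variation among the 6 females had a median of 0.228 and was lowest for MSTRG.19830 (0.0916), with 24 loci below 0.2 and 9 above 0.4. A low spread is in part fixed by the rule, which uses the lowest female library. The most variable were MSTRG.3117 (0.793), MSTRG.14712 (0.787) and MSTRG.131 (0.758).

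The stage comparison asked whether the loci changed between 70% and 50% development in cythera females. All 62 loci passed the expression filter, and 2 of them (MSTRG.14712 and MSTRG.3117) were called by edgeR's quasi-likelihood test (FDR under 0.05), against 15.9% of the 17298 loci tested. Both fell at 70%, where 8.43% of all loci fell. At an unadjusted p under 0.05 there were 4 of the 62 loci (6.45%), against 31.9% of all loci. Their median log2 fold change was 0.03, against -0.01 over all loci. The rule keeps only loci seen in every female at both stages, which limits how far a kept locus could fall.

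MSTRG.14712, a graded locus, was lower in every 70% library than in every 50% library. In the forewing and posterior hindwing it had 2.53 and 1.53 CPM in 70% females 10 and 12, against 10.3 and 25.8 CPM in cythera 50% females 1 and 3. The anterior hindwing of the same animals gave 2.90 and 1.98 CPM at 70%, against 16.3 and 36.0 CPM at 50%. The ranges did not overlap, and the rosina 50% females 6 and 8, with 11.6 to 24.2 CPM, were on the side of the cythera 50% females. The means were 2.23 ± 0.681 CPM at 70% and 22.1 ± 12.5 CPM at 50% (SD, n = 2 each), and the fitted log2 difference was -3.31 (SE 0.48, FDR 0.0132 in edgeR). Even at 70% its lowest female library was 3.23 times the highest male library.

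MSTRG.3117, an on/off locus, behaved alike. It had 0.330 to 0.658 CPM in cythera 70% female libraries, against 2.50 to 9.62 CPM in cythera 50% female libraries, with no overlap. Rosina 50% females again lay with the cythera 50% females, at 2.74 to 6.35 CPM. Its means were 0.529 ± 0.0935 CPM at 70% and 5.67 ± 3.33 CPM at 50% (SD, n = 2 each), and the fitted log2 difference was -3.43 (SE 0.56, FDR 0.0173 in edgeR). Its 4 male counts all came from rosina 70% males. With 2 females at each stage these calls rest on few animals. Without female 10 or female 12 neither locus was called (edgeR FDR 0.0711 and 0.0873 for MSTRG.14712, 0.109 and 0.0819 for MSTRG.3117), without female 3 MSTRG.3117 was not (FDR 0.0659), and in a fit of all 16 individuals neither was (FDR 0.187 and 0.0907), although the log2 fold changes lay between -3.74 and -2.57 in these fits.

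**Figure D3:**
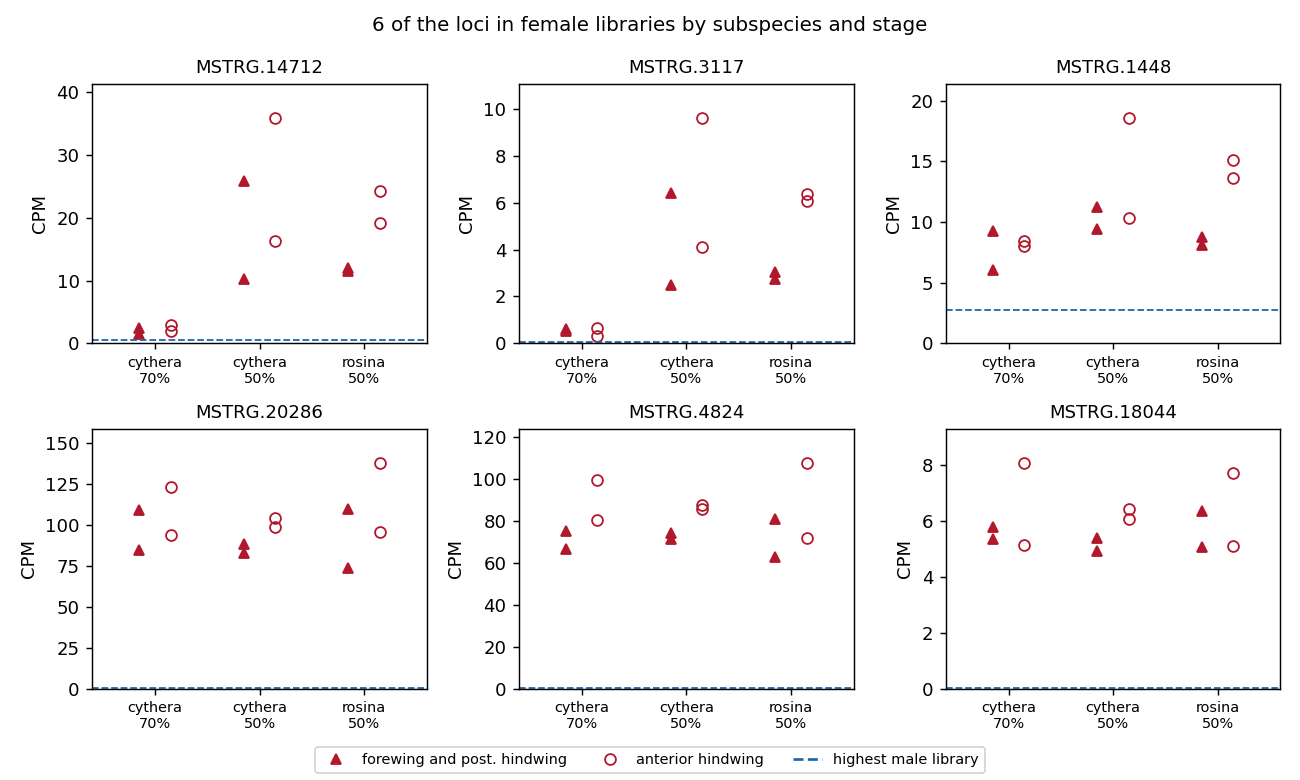
Levels of 6 of the loci in female libraries, in CPM on a linear axis, by subspecies and stage (filled triangles for the forewing and posterior hindwing, open circles for the anterior hindwing). The dashed line is the highest male library. MSTRG.14712 and MSTRG.3117 are lower in the 70% females, whereas MSTRG.20286, MSTRG.4824 and MSTRG.18044 have overlapping values in the groups, and the 70% values of MSTRG.1448 lie at 6.02 to 9.23 CPM.

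Of the loci at 10 CPM or more, edgeR called only MSTRG.14712 for stage. With 2 females at each stage, a locus not called may still have changed. MSTRG.20286 averaged 102.6 ± 19.0 CPM in cythera 70% females and 93.3 ± 0.223 CPM in cythera 50% females (SD, n = 2 each), and the fitted log2 difference was 0.14 (SE 0.21, FDR 0.704 in edgeR). MSTRG.20567 was at 0.16 (FDR 0.631), MSTRG.4824 at 0.03 (FDR 0.931) and MSTRG.4827 at 0.04 (FDR 0.943). Leaving aside MSTRG.14712, the loci at 10 CPM or more ran from -0.65 to 0.16. The value of -0.65 belonged to MSTRG.1448, with 7.94 ± 1.28 CPM at 70% and 12.4 ± 3.58 CPM at 50% (FDR 0.157 in edgeR). Its 70% females, with means of 7.04 and 8.85 CPM, lay below its cythera 50% females, at 9.86 and 14.9 CPM. The highest log2 difference over the 62 loci was that of MSTRG.19116, 1.31 (SE 0.54, FDR 0.171 in edgeR). It had 5.00 ± 0.834 CPM at 70% and 2.04 ± 1.32 CPM at 50%. DESeq2, which called 29% of all loci, called 3 of the 62, namely MSTRG.14712, MSTRG.3117 and MSTRG.14988, of which the last was at -0.96 in edgeR (FDR 0.123).

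Between subspecies, cythera 50% females were compared with rosina 50% females. None of the 62 loci was called by edgeR, against 0% of the 17298 loci tested, and the smallest FDR was 0.506. At an unadjusted p under 0.05 there were 0 of the 62, against 14.5% of all loci. The rule keeps only loci seen in every female of both subspecies, which limits how far a kept locus could differ between them. DESeq2 called 1572 loci in all and 0 of the 62. Log2 fold changes ran from -0.84 for MSTRG.22764 to 1.05 for MSTRG.7116, with a median of 0.05, and stayed between -0.20 and 0.39 for loci at 10 CPM or more. MSTRG.20286 had 93.3 ± 0.223 CPM in cythera and 104.2 ± 27.7 CPM in rosina, and MSTRG.18044 had 5.70 ± 0.288 CPM in cythera and 6.05 ± 1.37 CPM in rosina (SD, n = 2 each). For both loci the rosina females enclosed the cythera females. With 2 animals a side these data do not show that the levels were equal.

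Wing regions were compared within the 6 females, with the individual as a block. The filter kept 56 of the 62 loci, leaving out 6 weak on/off loci. No member was called by edgeR, where 0.139% of the 12221 loci tested were called, and the smallest FDR was 0.101. The log2 fold changes nevertheless leaned to lower levels in the forewing and posterior hindwing. They were negative for 49 of the 56 loci (35 of 39 graded and 14 of 17 on/off), against 53.7% of all loci, with a median of -0.24, against -0.02 over all loci. At an unadjusted p under 0.05 there were 12 of the 56 loci (21.4%), against 9.93% of all loci. DESeq2 called 4 of the 56, against 1.38% of all loci, namely MSTRG.14712, MSTRG.20286, MSTRG.20567 and MSTRG.4824, all lower in the forewing and posterior hindwing (FDR 0.00319, 0.0277, 0.0275 and 0.0276).

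The lean was present in each animal. The median log2 ratio over the 56 loci was -0.15 in the weakest case, female 6, and -0.37 in female 8. Levels were lower in the forewing and posterior hindwing of 6 of 6 females for 12 of the 56 loci (21.4%), against 4.06% of the 11319 loci with a count in every female library, and for 13 (23.2%), against 5.74%, when scaled by column totals in place of TMM. Loci measured in the same libraries are not independent replicates, so these shares describe these 6 females. MSTRG.20286 illustrates the size. Its forewing and posterior hindwing libraries held 73.8 to 109.7 CPM, against 93.8 to 138 CPM in anterior hindwing libraries, with log2 ratios of -0.29 to -0.16 within females (mean -0.22 ± 0.0590, SD, n = 6) and a fitted log2 difference of -0.22 (SE 0.05, FDR 0.145 in edgeR). The ranges of the regions overlapped, whereas within each female the anterior hindwing was higher.

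MSTRG.14712 had the smallest FDR, at -0.58 log2 units (SE 0.11, FDR 0.101 in edgeR), MSTRG.4824 and MSTRG.20567 followed at -0.26 (FDR 0.162 for both), and MSTRG.4827 was at -0.22 (FDR 0.251). All 11 loci at 10 CPM or more were negative, from -0.58 to -0.11. The on/off locus MSTRG.18044 was at -0.18 (FDR 0.624), with a higher anterior hindwing in 4 of 6 females.

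**Figure D4:**
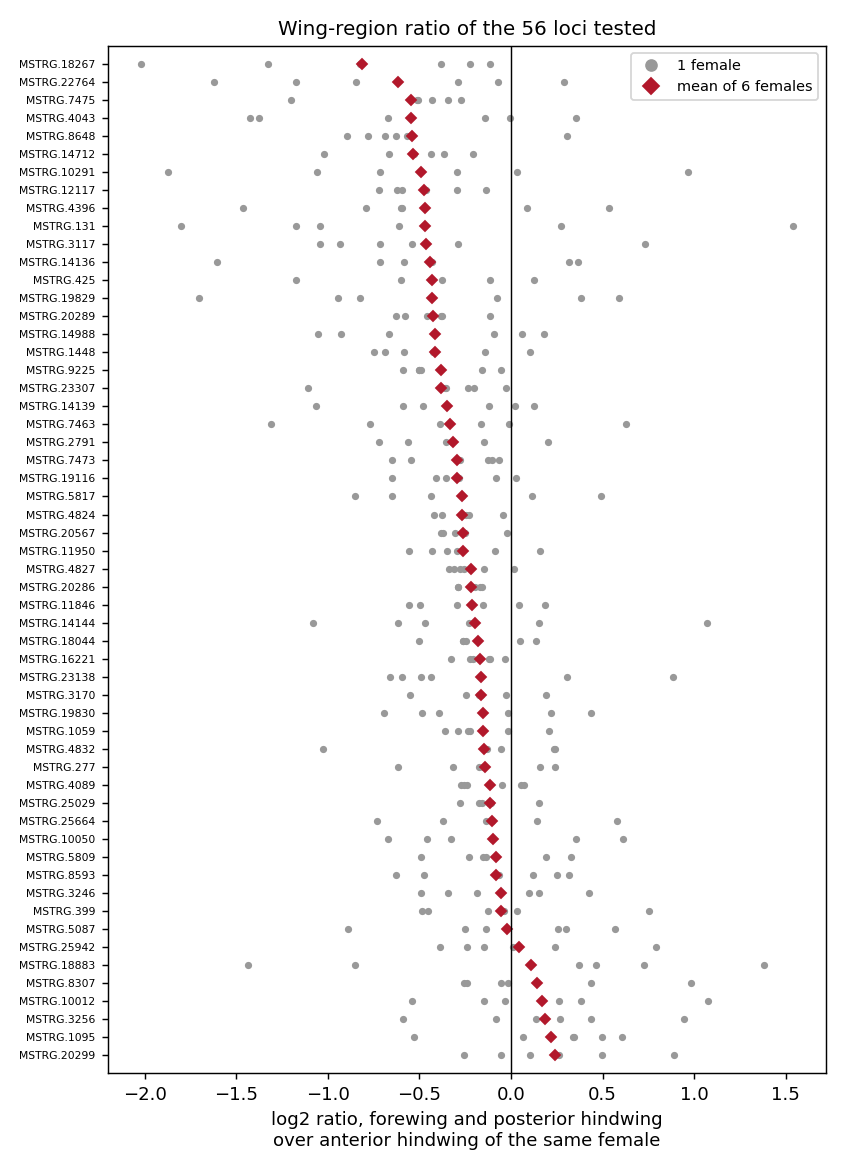
Log2 ratio of the forewing and posterior hindwing over the anterior hindwing of the same female for the 56 loci tested, in order of the mean. Grey points are single females and red diamonds the mean of 6. Most means lie below 0, the weakly counted loci scatter widely, and MSTRG.20286, MSTRG.20567 and MSTRG.4824 are below 0 in 6 of 6 females.

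Male reads of the 62 loci were unevenly spread over animals. A locus had at least 10 counts in a library of a male in 67 cases, spread over 22 loci, and in 64 of the 67 the other library of that male also held a count. Male 2 (cythera 50%) held 18 of the 67 cases, males 4, 7 and 9 held 8 each, male 11 held 7, and the others held 3 or 4. The highest male library for a locus came from male 2 for 16 of the 60 loci with a male read. MSTRG.9225 had 171 and 156 counts in the libraries of male 2, against 1 and 2 in male 4 of the same group. MSTRG.4089 had 134 and 107 counts in male 4 and 72 and 93 in male 2, but none in males 14 and 15. MSTRG.1448 had 100 and 99 counts in male 4. The libraries of a male were close in these cases but not in all. MSTRG.20286 had 4 and 25 counts in male 2, MSTRG.3170 had 19 and 5 in male 11, and MSTRG.14712 had 11 and 0 in male 7.

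**Figure D5:**
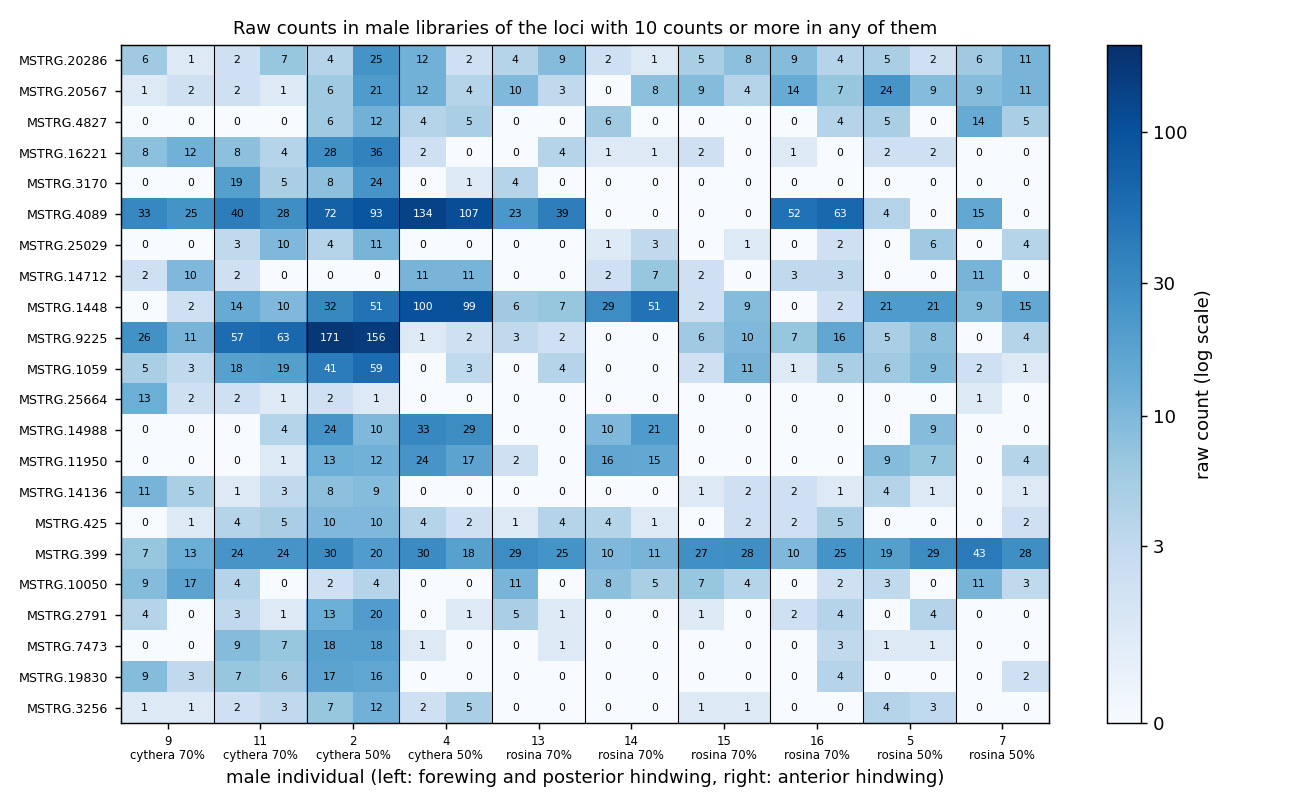
Raw counts in male libraries for the 22 loci with at least 10 counts in any of them, on a log colour scale, with the forewing and posterior hindwing left and the anterior hindwing right for each male. The highest counts stand in both libraries of a male, as for MSTRG.9225 in male 2 (171 and 156 counts) and MSTRG.1448 in male 4 (100 and 99), lower counts are less even, and MSTRG.399 is coloured in every library.

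Summed over the 62 loci, cythera male libraries held 5.31 to 15.4 CPM and rosina male libraries 2.31 to 5.29 CPM. By the labels these ranges did not overlap, but they nearly met. Without MSTRG.4089, MSTRG.9225 and MSTRG.1448 the ranges were 2.84 to 8.48 CPM in cythera and 1.74 to 3.84 CPM in rosina, which overlapped. Male 13, whose label is in doubt, held 3.83 and 4.09 CPM over the 62 loci, below every cythera male. Counted as cythera, male 13 would make the ranges over the 62 loci overlap. Locus by locus no difference was called. At 50%, 18 of the 39 graded loci passed the filter in males, and edgeR called 0 of these between cythera and rosina, against 0% of 19248 loci. At an unadjusted p under 0.05 there were 0 of the 18, against 9.91% of all loci. DESeq2 called 626 of the 19248 loci and 0 of the 18. The median log2 fold change of the 18 was 1.76 and rested on male 2, without which it was -0.22 over 23 loci. Between 70% and 50% cythera males, edgeR called 0 of 18, against 9.13% of 19248 loci. At an unadjusted p under 0.05 there were 2 of the 18 (11.1%), against 23.6% of all loci. DESeq2 called 3715 of the 19248 loci and 0 of the 18. The median log2 fold change of the 18 was -0.40 and also rested on male 2, without which it was 1.9 over 23 loci.

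Whether the female excess of the 39 graded loci changed with stage, subspecies or wing region could not be judged from these counts. Only 18 of the 39 passed the filter in males, and the other 21 entered the interaction fits through females, where the rule made them high. Some had no reads in the males compared, as for MSTRG.20289, whose stage term had an SE of 584 log2 units. In edgeR 0 of 39 were called for stage in cythera and for subspecies at 50%, against 0% of 21448 loci in each. For wing region 0 of 39 were called, against 0.0624% of 16033 loci. At an unadjusted p under 0.05 there were 2 for stage (5.13%, against 6.49% of all loci). For subspecies there were 8 (20.5%, against 4.62%), and for wing region 5 (12.8%, against 6.91%). DESeq2 called 1 for stage, MSTRG.4827, against 1.16% of all loci. It called 0 for subspecies (97 of 21448 loci in all) and 0 for wing region (143 of 16033). The median of the subspecies term turned on a single animal, at -1.08 with male 2 and 0.28 without. These counts support no statement on the female excess.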

How the data were processed

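The authors deposited raw counts per locus for 32 libraries, as whole numbers with no scaling. The submitters' processing notes name Trimmomatic 0.38, HISAT2 2.1.0, SAMtools 1.9, StringTie 1.3.5 and edgeR; the program that counted reads and the builds of genome and annotation are not given in the sources used here. No column was left unused, and 0 row IDs matched the RefSeq table of ASM5695672v1.

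Analyses used R 4.3.3, edgeR 4.0.16 (legacy quasi-likelihood F-test, TMM, filterByExpr with a minimum count of 10), limma 3.58.1, DESeq2 1.42.0, Python 3.11.15 and matplotlib 3.10.9. FDR is Benjamini-Hochberg over all loci tested, and standard errors come from the F statistic. Individual CPM values are means of 2 libraries. Stage and subspecies were tested on counts summed per individual, with groups of one sex in a fit, and wing regions with individual as block. Labels give both libraries of a number to the same animal, and their deviations from group means correlated at 0.638 to 0.791.

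Members and lists were chosen with earlier results of these data known. Named loci were the 10 most abundant on/off and graded loci, the 5 graded loci with the highest ratio of lowest female to highest male CPM, loci called in a test, and the 3 loci nearest the rule's edge on each side; annotated loci, loci at 1 to 10 CPM, and single extremes were named after their values were seen. Alternatives were other scaling, filters, fits and tools, single regions, and each individual left out. On simulated counts, edgeR recovered 54 of 191 changed loci for stage (17298 loci, 6 false calls) and 194 of 197 for wing region (12221 loci, 7 false calls). The planted changes were up to 3 log2 units in size, yet most were missed for stage. A locus not called for stage may therefore still have changed. For wing region the planted changes were larger in size than the log2 fold changes fitted for the 56 loci, -0.79 to 0.24. How often changes of that smaller size would be called was not tested.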

Additional observations from a re-analysis of the deposited data

Results flagged for a closer look

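Individual means of the 12 most abundant loci and of the summed levels of all, on/off and graded loci were screened within the 6 females and the 10 males, 30 groups in all, for an animal far apart from the others. There were 3 such cases, where chance gives about 1.5. MSTRG.3170 was at 24.15 CPM in female 8, with the nearest other female at 19.3 CPM. MSTRG.4089 was at 26.1 CPM in female 6, with the nearest other female at 19.3 CPM. MSTRG.9225 was at 3.915 CPM in male 2, with the nearest other male at 2.08 CPM.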

How the results depend on the processing

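Of 367 values under alternatives, 346 kept their call or size. Many are counts of calls, which cannot change sign. Most of the 346 were counts of 0 calls that stayed at 0, or loci not called that stayed so. The total therefore does not measure stability, and medians over the loci were not among the 367. The cause of changes was not tested. Some medians over the loci turned, among them those without male 2, to -0.22 for subspecies in males (1.76 with all males), 1.9 for stage in cythera males (-0.40), 0.28 for subspecies by sex (-1.08) and -0.28 for stage by sex (0.39), and without female 6, to -0.17 for subspecies in females (0.05). The rule kept 62 loci under TMM or median-of-ratios scaling (61 shared with the main set), 82 in anterior hindwing libraries alone, 73 in forewing and posterior hindwing libraries alone, 42 with at least 10 counts in every female library, and 62 to 68 with an individual left out, always including the 62. On/off loci numbered 2 with no male count and 41 with at most 10. For stage in females, 0 to 2 loci were called with an individual left out (0 without female 10 or 12, 1 without female 3) and 0 in a fit of all 16 individuals. That fit called 2 loci for stage in cythera males, of 39 of which 21 did not pass the filter in males alone. DESeq2 called 4 loci for wing region in females and 1 for the interaction of stage with sex. Without the individual as replicate block, 0 of 56 loci were called for wing region, 49 were again negative, and the FDR of MSTRG.14712 was 1.0. With an individual left out, 44 to 50 were negative and the median was -0.27 to -0.20. RLE scaling moved the median of all loci by at most 0.02. Depth limits the on/off loci and every test in males.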
